A study of Bos taurus with 12 samples.

Results

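The eukaryotic translation initiation factors were followed in the liver transcriptome of newborn Holstein heifer calves. They were taken as all genes of the count files whose bovine RefSeq symbol begins with EIF, apart from the EIF4E-binding proteins. This gave 49 of the 30336 genes counted, of which 47 were abundant enough in these libraries to be tested, among 13212 genes tested in all. Liver was biopsied at 4 d of age from 6 calves of cows on a control close-up diet without added methionine (CON) and from 6 calves of cows that received this diet plus ethyl-cellulose rumen-protected methionine (MET) during the last 28 d before calving. All calves were fed and managed similarly after birth, and messenger RNA was sequenced from 1 end with a stranded kit. The comparison asks whether the dam's methionine supply is accompanied by a different level of the mRNA of the initiation machinery in the calf's liver.

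Initiation is the step at which the small ribosomal subunit finds the start codon. The factor eIF2 brings the initiator tRNA, which carries methionine, to that subunit, and leaves it bound to GDP. The exchange factor eIF2B recharges eIF2 with GTP and is blocked when kinases that sense amino acids, haem, double-stranded RNA or unfolded protein phosphorylate eIF2. The large complex eIF3 keeps the small subunit open for mRNA, whereas the eIF4 factors bind the cap and unwind the 5′ end of the mRNA. In liver these steps are among the known control points by which amino acid supply and insulin set the rate of protein synthesis.

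The libraries held between 8277789 and 10397604 counted reads, and 3 reads corresponded to 0.289 to 0.362 CPM (counts scaled to a common library total, here before TMM factors), a floor that covers counting error only. Counting noise alone nearly covered the differences between CON replicates 1 and 4 (chi-square per gene 1.31) and between MET replicates 1 and 3 (1.23), whereas the other 64 pairs of libraries gave 23.3 to 122. Each of these pairs was therefore counted as 1 sample, which leaves 5 samples a diet. Log2 fold changes, SE and FDR are nevertheless from edgeR over the 12 libraries unless another fit is named. That fit counts both libraries of each pair as replicates, so its SE and FDR do not rest on 12 independent samples. Values below are CPM in the order of replicates 1 with 4, 2, 3, 5 and 6 for CON and 1 with 3, 2, 4, 5 and 6 for MET, and means are given with the SD over these 5 samples. The CON libraries carried one first sequencing index and the MET libraries another, so what belongs to the index and what to the diet cannot be told apart. The summed CPM of 8 hepatocyte markers was 134112 to 182351 in CON and 112689 to 143453 in MET, and no marker of that list passed the test. Calls of markers are from edgeR over the 12 libraries at an FDR of 0.10 or less, and none of them held over the 10 samples. All 7 macrophage markers had a higher mean in MET (sum 1308 to 1737 in CON and 1542 to 2054 in MET), with C1QB and C1QC called, and all 4 markers of cycling cells had a lower one (17.3 to 70.5 and 8.96 to 23.2), with CDK1 and CCNB1 called. The 5 stellate cell markers had a lower mean in MET too (516 to 788 and 392 to 645), with LUM called. No marker of the erythroid, endothelial, cholangiocyte or lymphoid lists was called, the erythroid sum being the most variable (8.75 to 1083 in CON and 65.6 to 589 in MET), and ACTA1, MYH2 and CKM of skeletal muscle were at 0 in every library. The part of cell composition in the values below was not tested, and in a whole-tissue sample fewer cells of a type and less RNA per cell cannot be told apart.

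Of the 47 tested factors, EIF2B4 and EIF2D were higher and EIF4A2 was lower in MET over the 12 libraries at a false discovery rate (FDR) of 0.10 or below by the quasi-likelihood test of edgeR, adjusted over all genes by the method of Benjamini and Hochberg. These 3 are 6.38% of the factors, beside 4.41% of all genes (2.09% higher and 2.32% lower). With 1 library left out in turn, EIF2D was called in 0, EIF2B4 in 1 (without MET replicate 1) and EIF4A2 in 2 (without CON replicate 2 or MET replicate 5) of the 12 fits. Over the 10 samples no factor and no gene passed this threshold, the lowest FDR of any gene being 0.155, and DESeq2 on the same 10 samples called 3 factors, again EIF2B4, EIF2D and EIF4A2, beside 5.23% of all genes with an adjusted p (2.47% higher and 2.76% lower). Over the 12 libraries DESeq2 called 8 factors beside 10.4% of such genes (4.99% higher and 5.36% lower). In the 10 samples, the quasi-likelihood test gave an unadjusted p no larger than 0.05 for 12 of the 47 factors, 9 of them higher and 3 lower, which is 25.5% beside 16.4% of all genes (7.86% higher and 8.5% lower). The 5 MET samples lay wholly above the 5 CON samples for EIF2B2, EIF2B3, EIF2B4 and EIF2D, or 8.51% of the factors beside 3.7% of all genes without overlap in either direction (1.93% higher in MET), and no factor lay wholly below, as 1.77% of all genes did. For these 4 genes the exact two-sided permutation p over 252 arrangements is 0.00794, which any gene without overlap must have and which adds nothing to that count. The median log2 fold change was 0.08 over the 47 factors and 0.00 over all genes, and 30 factors (63.8%, beside 49.6% of all genes) had a positive and 17 a negative fold change. In 33 of the 47 the sign was the same in all 27 fits that were tried. The plot of fold changes by family shows the eIF2B genes on one side of 0 and the eIF4 genes on both.

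**Figure D1:**
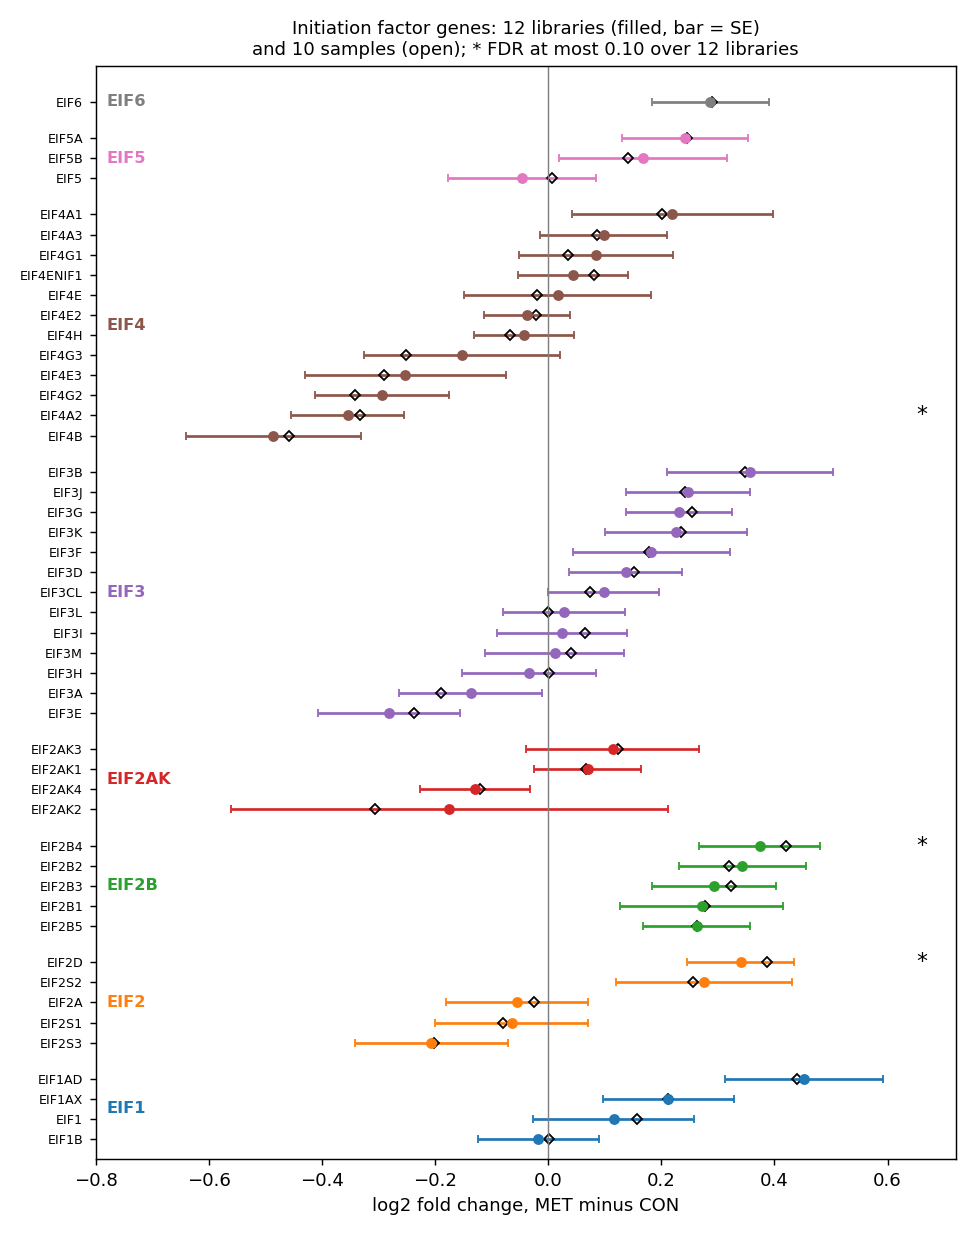
Log2 fold change (MET minus CON, horizontal axis) of the 47 tested initiation factors by family. Filled points are the fit over 12 libraries with the standard error as bar, open diamonds the fit over 10 samples, and asterisks mark EIF2B4, EIF2D and EIF4A2 (FDR of at most 0.10 over 12 libraries). The 5 eIF2B genes lie between 0.26 and 0.37, and the eIF4 genes between -0.49 and 0.22.

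The mRNAs of the factors were present at very different levels. Together they took 0.351 to 0.460% of the reads of a library. Scaled to exon length, the most abundant was EIF1 (136 CPM per kilobase, mean of 10 samples), which keeps the scanning ribosome from starting at wrong codons. It was followed by EIF4A1 (132), EIF5A (125), EIF3I (112) and EIF3E (104), and the sample ranges of these first 5 overlapped. At the low end stood EIF2AK3 (3.40), EIF4G3 (3.19) and EIF4E3 (2.42). The subunits of one complex were not at equal levels per length. EIF2S2 and EIF2S3, the β and γ subunits of eIF2, were at 55.8 and 49.4 CPM per kilobase, whereas EIF2S1, the α subunit that the kinases phosphorylate, was at 5.20. The eIF2B genes spanned 7.94 (EIF2B3) to 20.1 (EIF2B5) CPM per kilobase. The annotated exon length, untranslated regions included, enters these levels. EIF4E1B had no read in any library, and EIF5A2, a paralogue of EIF5A, had 4 reads in all, so both were left untested.

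**Figure D2:**
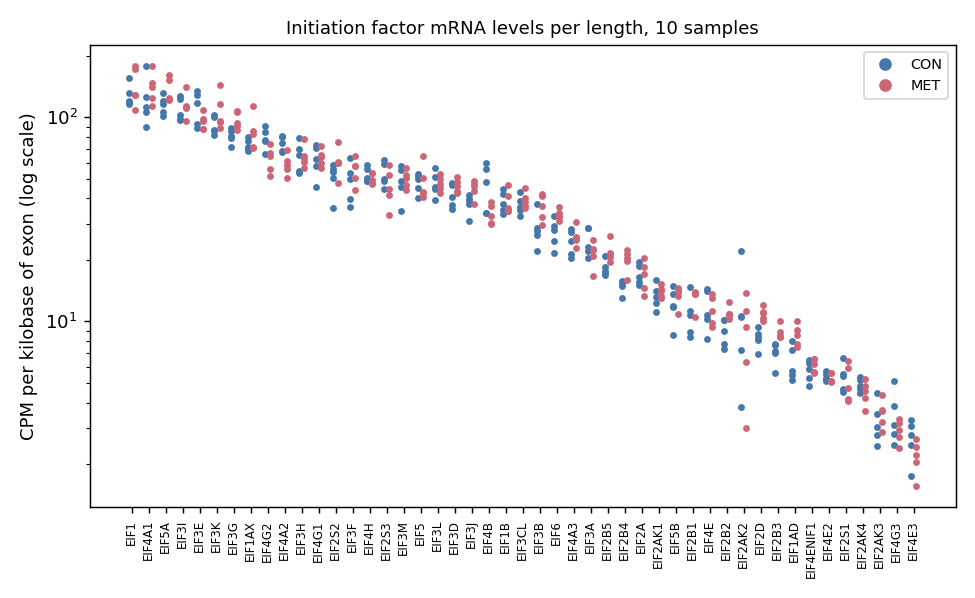
Level of each tested factor in CPM per kilobase of annotated exon (vertical axis, logarithmic) in the 10 samples, ordered by mean. Each point is 1 sample, CON in blue and MET in red. Levels run from about 136 for EIF1 to 2.42 for EIF4E3, and EIF2AK2 has the widest spread between samples.

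All 5 subunit genes of the exchange factor eIF2B had a positive log2 fold change (MET minus CON), from 0.26 to 0.37 with a median of 0.29 (49.6% of all genes had a positive one), and 1 of them (20%), EIF2B4, was called, beside 2.09% of all genes called higher. The sign was the same for each of the 5 in all 27 fits, between 0.20 and 0.49. Over the 10 samples, 4 of the 5 (80%, beside 16.4% of all genes and 7.86% higher in MET) had an unadjusted p of 0.05 or less in the same edgeR test and none an FDR of 0.10 or less.

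EIF2B4 encodes the δ subunit, part of the regulatory body of eIF2B that recognises phosphorylated eIF2, and lies at chr11:72283199-72287773 on the plus strand of the assembly UMD 3.1.1. It was at 30.5, 31.5, 26.8, 31.9 and 32.4 CPM in CON and at 32.7, 44.0, 42.1, 40.7 and 46.1 CPM in MET. The lowest MET sample, replicates 1 with 3, stood just above the highest CON sample, and the other 4 stood well apart. The means were 30.6 ± 2.25 and 41.1 ± 5.15 CPM (SD, n = 5), and the log2 fold change over 12 libraries was 0.37 (SE 0.107, FDR = 0.0895, edgeR quasi-likelihood test). Over 10 samples it was 0.42 with an FDR of 0.175 in the same edgeR test, and the call was lost in 11 of the 12 fits with 1 library left out.

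EIF2B2 encodes the β subunit of the same regulatory body. Its level was 10.8, 15.1, 11.5, 15.0 and 13.3 CPM in CON and 15.3, 16.2, 18.5, 15.8 and 16.2 CPM in MET. The highest CON and the lowest MET value were close to each other, and MET replicate 4 stood above the rest. The log2 fold change was 0.34 (SE 0.112) with an edgeR FDR of 0.121 over 12 libraries and 0.247 over 10 samples.

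EIF2B3 encodes the γ subunit, which together with the ε subunit forms the catalytic part. The CON samples held 11.3, 10.3, 8.22, 10.5 and 11.3 CPM and the MET samples 12.3, 14.7, 12.3, 12.4 and 13.0 CPM. No CON sample reached the lowest MET value. The log2 fold change was 0.29 (SE 0.110) with an edgeR FDR of 0.159 over 12 libraries and 0.241 over 10 samples.

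EIF2B5 encodes the ε subunit, which carries the exchange activity itself. CPM were 39.2, 38.2, 39.7, 41.8 and 47.2 in CON and 46.8, 48.4, 59.4, 43.9 and 49.0 in MET. CON replicate 6 fell within the MET range, and the other 4 CON samples were below it. The log2 fold change was 0.26 (SE 0.0950, FDR = 0.148) in edgeR over 12 libraries, and the exact permutation p over 10 samples was 0.0238. EIF2B1, the α subunit, had means of 19.0 ± 4.36 and 23.0 ± 2.60 CPM (SD, n = 5), and its diets overlapped at both ends, as CON replicate 6 was the highest sample of all and the MET sample of replicates 1 with 3 lay among the CON samples. Its log2 fold change of 0.27 had an edgeR FDR of 0.306.

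**Figure D3:**
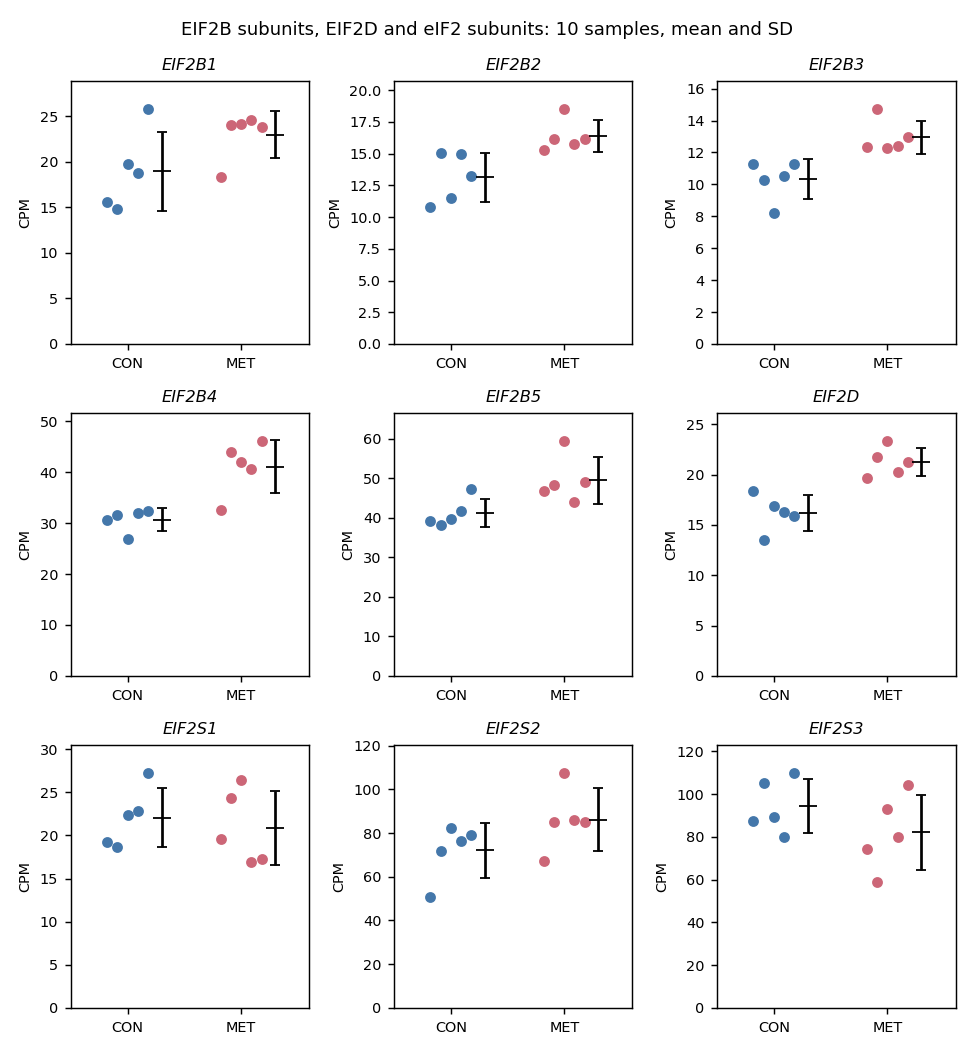
CPM (vertical axes from 0) of the 5 eIF2B genes, EIF2D and the 3 eIF2 subunit genes in the 5 CON (blue) and 5 MET (red) samples, with mean and SD in black. MET lies above CON without overlap for EIF2B2, EIF2B3, EIF2B4 and EIF2D, and the diets overlap for EIF2S1, EIF2S2 and EIF2S3.

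The subunits of eIF2 itself showed no common direction. EIF2S1 was at 19.3, 18.7, 22.4, 22.8 and 27.2 CPM in CON and 19.6, 24.4, 26.4, 16.9 and 17.3 CPM in MET. The diets overlapped over nearly the whole range, with a log2 fold change of -0.06 (SE 0.135, FDR = 0.828) in edgeR. The fold change of EIF2S2, whose protein docks the partner factors of eIF2, was 0.28 (edgeR FDR = 0.336), and that of EIF2S3, the subunit that binds GTP and the initiator tRNA, was -0.21 (FDR = 0.408). Both diets overlapped for each of them.

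EIF2D and EIF2A carry eIF2 in their names without being subunits of it. EIF2D binds the ribosome and can deliver a tRNA without GTP, and acts in ribosome recycling and re-initiation. It lies at chr16:4221210-4242621 on the minus strand of UMD 3.1.1. Its level was 18.4, 13.6, 16.9, 16.3 and 15.8 CPM in CON and 19.7, 21.7, 23.3, 20.2 and 21.3 CPM in MET. All MET samples were higher than all CON samples, with means of 16.2 ± 1.75 and 21.2 ± 1.43 CPM (SD, n = 5). The log2 fold change was 0.34 (SE 0.0945, FDR = 0.0855) over 12 libraries and 0.39 with an FDR of 0.175 over 10 samples, both in edgeR's quasi-likelihood test, and the call was lost in all 12 fits with 1 library left out. EIF2A, another protein able to bring in initiator tRNA, had a log2 fold change of -0.06 (FDR = 0.842). MCTS1, which with its partner DENR forms a heterodimer related in sequence to EIF2D and with similar activity, was also without overlap (23.6 ± 2.03 CPM in CON and 30.4 ± 3.17 CPM in MET, SD, n = 5) and was called over 12 libraries (log2 fold change 0.33, edgeR FDR = 0.0855, and 0.181 over 10 samples). DENR was below the filter at a mean of 0.752 CPM in CON and 0.817 CPM in MET.

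None of the 4 eIF2 kinases passed the test. EIF2AK4, also named GCN2, is activated by uncharged tRNA when an amino acid is short. It was at 27.0, 25.4, 27.8, 23.4 and 24.3 CPM in CON and 23.9, 19.1, 27.5, 25.1 and 22.1 CPM in MET, with a log2 fold change of -0.13 (SE 0.0966, FDR = 0.473) in edgeR. The diets overlapped, as they did for EIF2AK3, the kinase of the endoplasmic reticulum known as PERK. EIF2AK3 was at 12.9, 11.4, 20.7, 14.2 and 16.4 CPM in CON and 13.4, 16.9, 17.0, 20.3 and 14.9 CPM in MET, with a log2 fold change of 0.11 (SE 0.153, FDR = 0.713). EIF2AK2, the interferon-induced kinase PKR, varied most of the tested factors between samples, from 11.7 to 67.3 CPM in CON and from 9.16 to 41.9 CPM in MET, and its log2 fold change of -0.17 had a standard error of 0.387. EIF2AK1, the haem-regulated kinase, had a log2 fold change of 0.07. With 1 library left out, the log2 fold change ranged from 0.034 to 0.23 for EIF2AK3, from 0.023 to 0.13 for EIF2AK1 and from -0.18 to -0.075 for EIF2AK4. Downstream of the pathway, DDIT3, a transcription factor gene of the stress response, was without overlap at 17.7 ± 2.03 CPM in CON and 26.0 ± 2.66 CPM in MET (SD, n = 5; log2 fold change 0.52, edgeR FDR = 0.0452, and 0.155 over 10 samples). ATF4, whose mRNA is translated more when eIF2 is phosphorylated, had a log2 fold change of 0.23 and an edgeR FDR of 0.385. PPP1R15A and PPP1R15B, from the same list of partners given below, had log2 fold changes of -0.08 and -0.12 (edgeR FDR = 0.821 and 0.573), with overlapping diets.

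Of the genes with symbols in EIF1, EIF1AD had the largest positive log2 fold change of all 47, 0.45 (SE 0.139, FDR = 0.107) in edgeR over 12 libraries, with an FDR of 0.212 over 10 samples. It is a gene named for its domain shared with eIF1A, and the diets were at 10.3 ± 2.00 and 13.9 ± 1.67 CPM (SD, n = 5) and overlapped. EIF1AX, which encodes eIF1A, and EIF1 had log2 fold changes of 0.21 and 0.12, neither of them past the test, and 0.10 and 0.025 without MET replicate 6. With the trend on gene length removed, as described below, these 2 values became 0.03 and 0.02, whereas that of EIF1AD was 0.40. EIF1B, the paralogue of EIF1, did not keep its sign between the fits.

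No subunit of eIF3 was called by edgeR over 12 libraries or over 10 samples, while DESeq2 called EIF3G over 12 libraries (adjusted p = 0.0989). Of its 13 genes, 10 had a positive and 3 a negative log2 fold change (76.9% positive, beside 49.6% of all genes), from -0.28 (EIF3E) to 0.36 (EIF3B), with a median of 0.10, and 2 of the 13 (15.4%, beside 16.4% of all genes) had an unadjusted p of 0.05 or less over 10 samples in the edgeR test. These were EIF3B, a core subunit with an RNA-binding and a propeller domain (103.6 ± 20.6 CPM in CON and 132 ± 19.5 CPM in MET, SD, n = 5), and EIF3G, an RNA-binding subunit (90.6 ± 7.56 and 108 ± 10.3 CPM). Their edgeR FDR over 12 libraries was 0.193 and 0.189. EIF3A, the largest scaffold subunit, was at 98.6, 107, 138, 113 and 139 CPM in CON and 109, 109, 121, 102 and 80.8 CPM in MET. MET replicate 6 was the lowest sample and the diets overlapped, with a log2 fold change of -0.14 (SE 0.126, FDR = 0.568), which was -0.074 without that library and -0.18 without MET replicate 4. EIF3E was at 168 ± 30.8 CPM in CON and 143 ± 12.7 CPM in MET, with an FDR of 0.224. EIF3D, which can itself bind the cap of some mRNAs, had a log2 fold change of 0.14, EIF3J, the loosely attached subunit, 0.25, EIF3F 0.18 (0.11 without CON replicate 3), EIF3K 0.23 (0.12 without MET replicate 6) and EIF3CL, which has EIF3C as a synonym in RefSeq, 0.10 (0.056 without MET replicate 4 and 0.15 without CON replicate 6). EIF3H, EIF3I, EIF3L and EIF3M did not keep their sign between the fits.

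Of the 12 tested genes of the eIF4 family, 5 had a positive and 7 a negative log2 fold change (41.7% positive, beside 49.6% of all genes), 1 was called lower over 12 libraries (8.33%, beside 2.32% of all genes), and the 3 with an unadjusted p of at most 0.05 over 10 samples (25%, beside 16.4% of all genes and 8.5% lower, namely EIF4A2, EIF4B and EIF4G2) were all lower in MET in the edgeR test.

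EIF4A2 encodes one of the 2 closely related helicases that unwind mRNA before scanning, and lies at chr1:81057776-81064329 on the minus strand of UMD 3.1.1. It was at 188, 158, 187, 159.8 and 174 CPM in CON and at 137, 142, 118, 162 and 130.3 CPM in MET. Only MET replicate 5 reached into the CON range, and the other 4 MET samples lay below it. The means were 173 ± 14.3 and 138 ± 16.1 CPM (SD, n = 5). The log2 fold change was -0.35 (SE 0.10, FDR = 0.0869) over 12 libraries and -0.33 with an FDR of 0.220 over 10 samples in edgeR, and the exact two-sided permutation p was 0.0238.

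EIF4A1, the other helicase gene, was at 163, 194, 231, 205 and 328 CPM in CON and 207, 229, 325, 271 and 258 CPM in MET. CON replicate 6 was the highest sample, and the diets overlapped, with a log2 fold change of 0.22 (SE 0.178, FDR = 0.510) in edgeR, which was 0.38 without that library and 0.13 without MET replicate 4. Per kilobase of exon, EIF4A2 made up 47.5, 39.0, 38.8, 38.0 and 29.4% of both helicase mRNAs in CON and 34.2, 32.8, 22.1, 31.9 and 28.4% in MET. That is 38.5 ± 6.42% and 29.9 ± 4.82% (SD, n = 5). CON replicate 6 alone lay within the MET range, and no test was made of this ratio, which was formed after the values of both genes were known. EIF4A3, a relative that works in the exon junction complex and not in scanning, was at 30.7, 32.0, 37.0, 41.2 and 42.4 CPM in CON and 34.4, 38.6, 46.1, 38.4 and 37.3 CPM in MET, with overlapping diets and a log2 fold change of 0.10 (SE 0.113, FDR = 0.661), or 0.037 to 0.15 with 1 library left out.

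EIF4B, a cofactor that stimulates the helicase, had the largest negative log2 fold change of the factors, -0.49 (SE 0.155, FDR = 0.113) in edgeR over 12 libraries, with an FDR of 0.243 over 10 samples. Its CON samples were at 223, 237, 136, 135 and 192 CPM and its MET samples at 147, 119.8, 131, 121 and 154 CPM. The CON samples themselves spread widely, 2 of them lying within the MET range, and the exact permutation p was 0.0794. EIF4H, a cofactor related to EIF4B, had a log2 fold change of -0.04 (FDR = 0.825).

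EIF4G1, the scaffold that joins cap-binding protein, helicase and eIF3, was at 254, 319.8, 406, 349 and 395 CPM in CON and 331, 356, 403, 362 and 314 CPM in MET. The MET samples lay within the CON range, with a log2 fold change of 0.08 (SE 0.136, FDR = 0.767) in edgeR, and of 0.018 to 0.15 with 1 library left out. EIF4G2, a relative without the site for the cap-binding protein that serves cap-independent initiation, was at 243, 279, 329.7, 284 and 309 CPM in CON and 235, 203, 269, 245 and 189 CPM in MET. MET replicates 2 and 6 and the sample of replicates 1 with 3 were below all CON samples, and the other two were not. Its log2 fold change was -0.29 (SE 0.118, FDR = 0.186) in edgeR over 12 libraries. Over 10 samples its edgeR FDR was 0.256 and its exact permutation p was 0.0238. EIF4G3, a lowly expressed paralogue of EIF4G1, had a log2 fold change of -0.15.

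EIF4E, the cap-binding protein itself, was at 13.5, 16.8, 23.2, 17.7 and 23.5 CPM in CON and 16.2, 21.3, 22.2, 18.3 and 15.3 CPM in MET. The diets overlapped throughout, and its log2 fold change of 0.02 (SE 0.166, FDR = 0.971) changed sign under upper-quartile scaling and over the 10 samples. EIF4E3, a low-abundance relative, was at 6.54 ± 1.49 and 5.33 ± 1.01 CPM (SD, n = 5) with a log2 fold change of -0.25 (FDR = 0.443), and EIF4ENIF1, which carries EIF4E to the nucleus and to mRNA granules, had one of 0.04. EIF4E2, a cap-binding repressor, did not keep its sign between the fits.

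**Figure D4:**
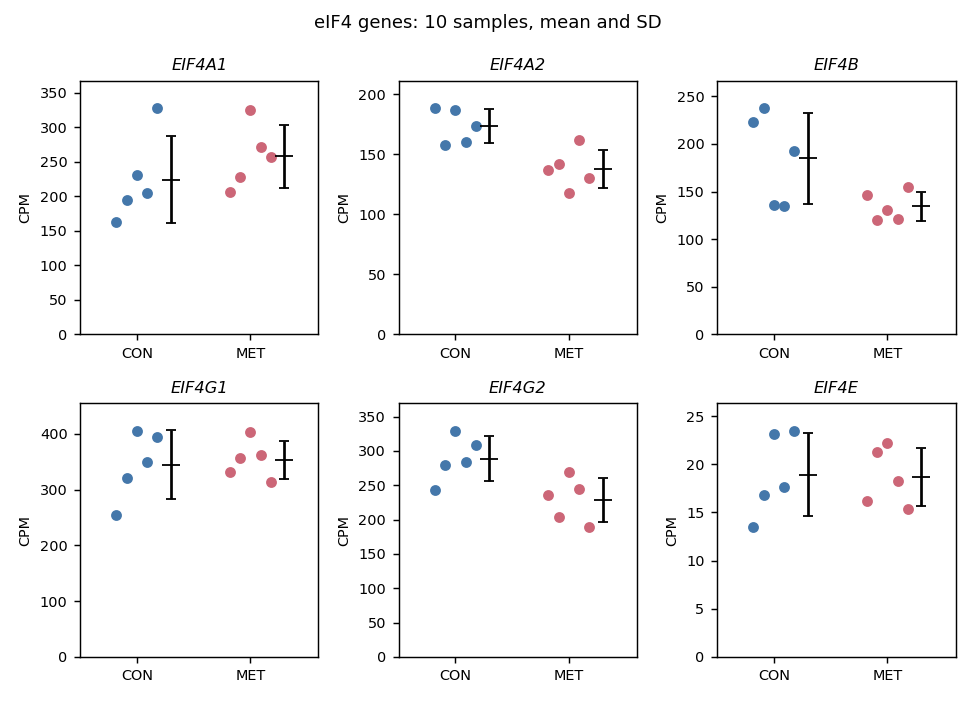
CPM (vertical axes from 0) of 6 eIF4 genes in the 5 CON (blue) and 5 MET (red) samples, with mean and SD in black. For EIF4A2 and EIF4G2 most MET samples lie below the CON samples, whereas for EIF4A1, EIF4G1 and EIF4E the diets overlap, and EIF4B spreads widely in CON.

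Among the factors of subunit joining and of later steps, none was called. EIF5A, which carries hypusine and helps the ribosome to form difficult peptide bonds, was at 135, 153, 129, 148 and 169 CPM in CON and 157, 155, 206, 158 and 195 CPM in MET. The diets overlapped, with a log2 fold change of 0.24 (SE 0.111, FDR = 0.238) in edgeR. EIF6, which keeps the large ribosomal subunit from joining too early and takes part in its maturation, was at 31.3, 27.5, 24.0, 32.8 and 36.5 CPM in CON and 37.7, 36.2, 40.7, 34.6 and 36.7 CPM in MET. CON replicate 6 fell among the MET samples, while the other 4 CON samples were lower than every MET sample. Its log2 fold change was 0.29 (SE 0.104, FDR = 0.148) in edgeR over 12 libraries. Over 10 samples its edgeR FDR was 0.269 and its exact permutation p was 0.0238. EIF5B, the GTPase of subunit joining, had a log2 fold change of 0.17 (FDR = 0.552, 0.087 without CON replicate 1 and 0.26 without CON replicate 6), and EIF5, which makes eIF2 hydrolyse its GTP, did not keep its sign between the fits.

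Gene length moved with the fold change in these libraries. Over the 13212 genes the correlation of log2 fold change with log2 exon length was -0.26, and the median log2 fold change fell from 0.18 in the shortest of 10 equal bins of genes (median 837 bases) to -0.15 in the longest (median 8442.5 bases). Over the 47 factors the correlation was -0.39, given as a description, since the points share their libraries. After a smooth trend on length had been removed from each library it was -0.03, and no factor was then called, with FDR of 0.113 for EIF4A2, 0.122 for EIF2B4 and 0.126 for EIF2D (edgeR, 12 libraries), beside 1.85% of all genes. The log2 fold changes of these 3 were -0.35, 0.37 and 0.32, close to those before. The median of the 5 eIF2B genes was 0.27 after the removal and 0.29 before it. That of the 4 eIF1 genes went from 0.16 to 0.02, and that of the 13 eIF3 genes from 0.10 to 0.06, with 8 of them positive after the removal. Among single factors, EIF3K went from 0.23 to 0.06, EIF3G from 0.23 to 0.12, EIF6 from 0.29 to 0.17, EIF5A from 0.24 to 0.15 and EIF5B from 0.17 to 0.28. The unadjusted edgeR p of EIF3G over 10 samples went from 0.0399 to 0.180. Over the 10 samples with the trend removed, 9 of the 47 factors had an unadjusted p of at most 0.05 in edgeR, against 12 before. For the 5 eIF2B genes the count was 3, against 4 before. The share of all genes in that fit is not given. The eIF2B genes have a median exon length of 1759 bases and the tested eIF4 genes one of 3198 bases. For the 47 factors it is 1933 bases, and for all tested genes 2807.

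**Figure D5:**
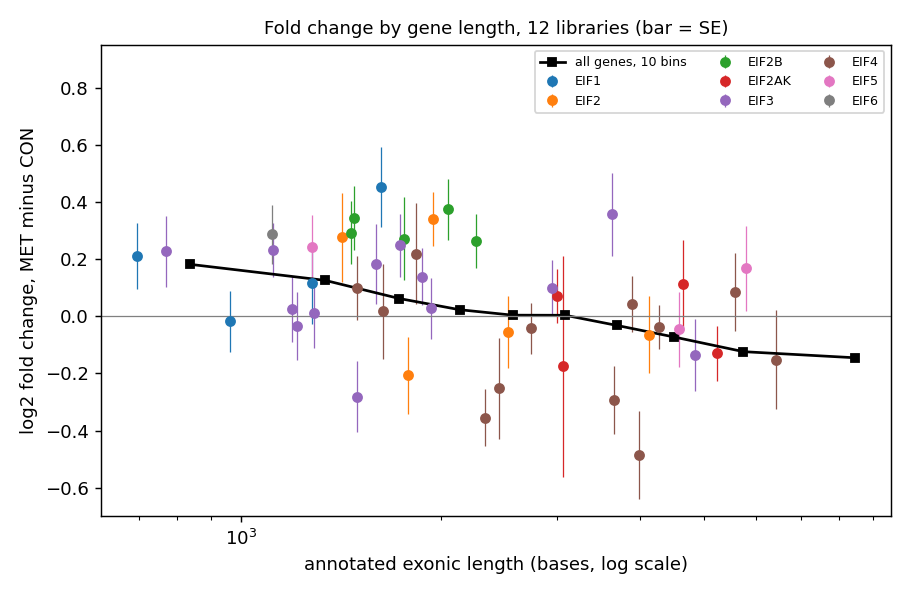
Log2 fold change over 12 libraries (vertical axis) against annotated exon length in bases (horizontal axis, logarithmic) for the 47 factors, coloured by family, with standard errors. Black squares are medians of all tested genes in 10 bins of length, falling from 0.18 to -0.15, and the eIF2B genes lie above this line and EIF4A2 and EIF4B below it.

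Genes that act around the initiation factors were taken from a list of 25 partners and regulators, 24 of them tested. MCTS1 and DDIT3 were called higher by edgeR over 12 libraries and none lower, beside 2.09% higher and 2.32% lower of all genes, while 10 had a positive and 14 a negative log2 fold change (49.6% of all genes had a positive one), with a median of -0.07. Over the 10 samples, 10 of the 24 had an unadjusted p of 0.05 or less in the edgeR test, beside 16.4% of all genes. Of these, 4 were higher in MET (MCTS1, DDIT3, EIF4EBP1 and EIF4EBP3) and 6 lower (PABPC1, PAIP1, EIF4EBP2, MKNK2, IMPACT and DDX3X). Of 9 elongation and release factors, EEF1D, a subunit of the exchange factor of elongation, was called higher (log2 fold change 0.44, edgeR FDR = 0.0801), beside the same 2.09% of all genes, the others not. The mitochondrial initiation factors MTIF2 and MTIF3 were not called.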

How the data were processed

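The 12 liver RNA libraries were prepared with a stranded mRNA kit and sequenced on 1 lane. The authors aligned trimmed reads to UMD 3.1.1 with STAR 2.5.3a, assigned them to exons by strand with featureCounts (Subread 1.5.2), leaving out reads of several places or genes, and deposited raw counts per Entrez gene ID for each library. Symbols came from RefSeq (ARS-UCD2.0), coordinates and exon lengths from the count files. Sequences of the factors were not used here. Mitochondrial RNA rows without a gene ID (0.0487 to 0.115% of reads) stayed in the library totals and in the test.

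TMM-normalized CPM and edgeR 4.0.16 quasi-likelihood tests in R 4.3.3 were computed after edgeR's default filter (minimum count 10, minimum total count 15), on diet alone, with Benjamini-Hochberg adjustment over 13212 genes. In the 10-sample fits, the reads of near-identical libraries were summed, and in CPM means they were averaged. Labels do not name the animal behind each library, so p-values measure the spread between these samples. Exact two-sided permutation tests used log2 CPM with a prior count of 2. No factor's exons overlap another gene's on the same strand.

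Alternatives were RLE and upper-quartile scaling, DESeq2 1.42.0, voom of limma 3.58.1, robust dispersion, other filters, removal of a loess trend on gene length (span 0.5), a replicate block, each library left out, and, chosen after seeing the data, 1 library of each near-identical pair kept, or these libraries dropped. The edgeR fit with and without length removal, DESeq2 and voom were tested on simulated data, which held no near-identical libraries. The other steps were not. The factors and lists were chosen with earlier results of these data known. Values in every sample are given for factors that were called, that did not overlap between diets, or that belong to a fixed list of main factors, and the others by family with the largest rise and fall. EIF4B was given in every sample after its values were seen.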

Additional observations from a re-analysis of the deposited data

Results flagged for a closer look

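In 3 of 94 sets of 5 samples (1 factor in 1 diet) a single sample stood apart by Dixon's criterion at the 95% level, which chance gives in about 1 in 20 sets. All 3 were MET sets of eIF2B genes, and the samples differed. EIF2B1 was at 18.4 CPM in the MET sample of replicates 1 with 3, below the 23.9 to 24.6 CPM of the others. EIF2B2 was at 18.5 CPM in MET replicate 4, above the others at 15.3 to 16.2 CPM. EIF2B3 was at 14.7 CPM in MET replicate 2, where the others were at 12.3 to 13.0 CPM.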

How the results depend on the processing

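At an FDR of at most 0.10, 583 genes and 3 factors were called, 2 higher and 1 lower. RLE or upper-quartile scaling, robust dispersion and a CPM minimum called the same 3 factors. With DESeq2, 1314 genes and 8 factors were called, 6 higher (EIF1AD, EIF2B2, EIF2B4, EIF2B5, EIF2D, EIF3G) and 2 lower (EIF4A2, EIF4B), and with voom 1 factor was called higher (EIF2D) and 1 lower (EIF4A2). No factor was called in either direction without a low-count filter (238 genes), with the length trend removed (245 genes), with a replicate block (6 genes), over the 10 samples with or without length removal, with 1 library of each near-identical pair kept or with these libraries dropped (0 genes each). DESeq2 called 624 genes and 3 factors over the 10 samples. Replicate numbers did not pair the libraries (correlations of deviations from -0.190 to 0.148). Leaving out 1 library gave 26 to 565 genes, with 26 without CON replicate 1 and 35 without CON replicate 4, which form a near-identical pair. The fits without MET replicate 1 or 3, the other such pair, gave 206 and 332 genes. With 1 library left out, 0 to 2 factors were called (0 to 1 higher, 0 to 1 lower). EIF2B2 and EIF4A2 were called without CON replicate 2, EIF1AD and EIF4B without CON replicate 5, and 1 factor each without CON replicate 3 (EIF4B), MET replicate 1 (EIF2B4) and MET replicate 5 (EIF4A2), none without CON replicates 1, 4 or 6 or MET replicates 2, 3, 4 or 6. Signs turned for EIF2A (0.018 with near-identical libraries dropped), EIF2S1 (0.0052 with the length trend removed), EIF4G1 (-0.034 with near-identical libraries dropped) and EIF4E, which was -0.0040 under upper-quartile scaling, -0.029 with the length trend removed, -0.019 over 10 samples and -0.019 with DESeq2 on them, -0.061 over 10 samples with the length trend removed, -0.026 with 1 library of each near-identical pair kept and -0.074 with these libraries dropped. With 1 library left out, the log2 fold change ranged from -0.13 to 0.011 for EIF2A, from -0.35 to 0.16 for EIF2AK2, from -0.15 to 0.013 for EIF2S1, from -0.073 to 0.11 for EIF4E, from -0.0041 to 0.082 for EIF4ENIF1 and from -0.23 to 0.013 for EIF4G3. The cause of these changes was not tested. EIF4E1B and EIF5A2, with 0 and 4 reads in all, could not be tested at this depth.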
